A study of Sus scrofa with 9 samples.

Results

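To describe what overexpression of lnc*PLAAT3*-AS changed in porcine primary preadipocytes, the 3 libraries of the overexpression group were compared with the 3 libraries of the control group, 6 of the 9 libraries of the series. Lnc*PLAAT3*-AS is a long noncoding RNA transcribed antisense to *PLAAT3*, a gene for a phospholipase abundant in fat cells. Both groups were preadipocytes from the back fat of female Rongchang piglets, labelled wild type, grown in medium with 20% fetal bovine serum, given insulin, 3-isobutyl-1-methylxanthine and dexamethasone to induce differentiation, and labelled day 8. The overexpression group had been transfected with lnc*PLAAT3*-AS by a lipid reagent, and the control is called a blank control in the design and a negative control in the study, which for its cell assays names an si-NC construct. The sources used here name no empty plasmid for the control, so an effect of the RNA and one of introducing a plasmid cannot be told apart. All 3 repeats used cells of 1 pig, so no p-value covers a spread between animals. The spread behind each p-value was estimated over all 9 libraries together, the siRNA group of the series included. Whether the 3 overexpression libraries came from separate cultures was not tested. The interferon, macrophage, NF-kB and ribosomal protein genes, which also moved, are left aside, and the genes described are those of the matrix, secreted factors, transcription factors, metabolism and the cell types.

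Preadipocytes are fibroblast-like cells of fat tissue that build a collagen-rich matrix, and on adipogenic induction they switch on *PPARG* and *CEBPA*, fill with lipid droplets and exchange a fibrillar matrix for a basement membrane. Their secreted proteins include complement factors, chemokines, growth factors and the antagonists of Wnt and bone morphogenetic protein signals, which set how many cells enter differentiation. Fatty acid synthesis in these cells is driven by SREBP-1, the product of *SREBF1*, and cholesterol synthesis mainly by its relative SREBP-2.

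Each library held 17099182 to 17495882 estimated counts, and levels are given as CPM, counts scaled to a common library size with TMM factors. FPKM, which also divides by transcript length, is used where the levels of different genes are set side by side. The lncRNA itself was not analysed here, so the label of the overexpression libraries was not checked against its target, and *PLAAT3* had 9.75, 11.8 and 10.7 CPM in control replicates 1 to 3 against 11.6, 10.8 and 10.9 CPM in the overexpression libraries (log2 fold change 0.043 ± 0.099, edgeR adjusted p = 0.749). The overexpression libraries were close to each other, with a variance between pairs of libraries that was on average over genes 1.41 to 1.60 times that of counting noise (1.21 to 1.29 times by the median), whereas in pairs of control libraries it was 5.25 to 12.97 times (2.54 to 5.17 times by the median), with replicates 1 and 3 the farthest apart. Control replicate 3 touches several results below, and the values without it are given there. Some estimated counts of *CX3CL1*, *CLU*, *KRT5* and *ACTA2* were not whole, so these genes may share reads with others and their values are uncertain.

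Of 12721 genes tested, 332 were higher and 241 were lower after overexpression, counted as at least 2-fold with an adjusted p under 0.05 in edgeR's quasi-likelihood test with Benjamini-Hochberg adjustment. These are called genes below, and they make up 4.5% of the tested genes, 2.61% higher and 1.89% lower. The called counts of every list below are to be read beside these shares. Without the fold requirement 47.3% of genes passed, 23.9% higher and 23.4% lower. In 57.1% of genes the 3 control and the 3 overexpression values did not overlap. With overexpression libraries so close to each other, a lack of overlap was common over all genes and by itself sets no gene apart. The median log2 fold change over all tested genes was 0.0060. Outside the interferon, macrophage, NF-kB and ribosomal protein lists, 267 of 12425 tested genes were higher and 224 were lower, and 133 called genes belonged to at least 1 of the 51 gene lists described here. In bulk cultures, a gene that is lower because fewer cells express it and one that is lower in every cell cannot be told apart.

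**Figure D1:**
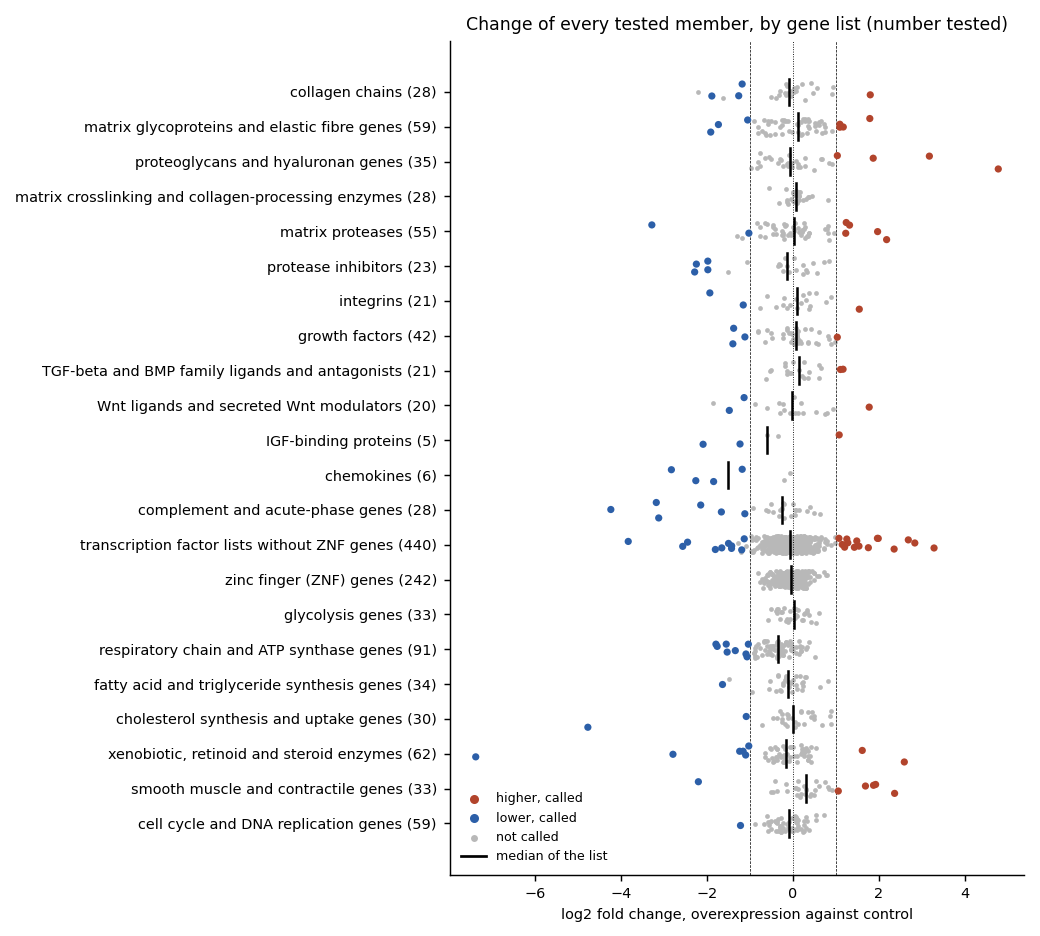
Log2 fold change of every tested member of 22 gene lists (horizontal axis, overexpression against control), 1 dot a gene, with the number of tested members after each list name, a black bar at the list's median and dashed lines at 2-fold. Called genes are red (higher) or blue (lower). Chemokines, complement genes, protease inhibitors and respiratory chain, fatty acid synthesis, cholesterol and cell cycle genes have called members only on the lower side. Proteoglycans and TGF-beta and BMP genes have them only on the higher side. The 2 largest lists of transcription factors are centred near 0, and the largest fall among the genes drawn is *CYP1A1*, with a log2 fold change of -7.39.

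Among the matrix lists, collagen chains had the largest summed CPM in both groups, and the 2 most abundant chains were higher after overexpression. These are transcript levels, in which long transcripts count for more, and the deposited matrix was not measured. Collagen transcripts together made up 11.1 ± 0.357% of all CPM in the control and 14.7 ± 0.157% in the overexpression group (SD, n = 3), a share for which no test was made. *COL1A1*, the main chain of type I collagen and the most abundant collagen at 8806 FPKM in the control, had 46472, 51172 and 48295 CPM in control replicates 1 to 3 and 64443, 65395 and 64657 CPM in the overexpression libraries (log2 fold change 0.41 ± 0.058, edgeR adjusted p = 9.04e-06). *COL1A2*, its partner chain, had 19644, 19767 and 18908 CPM against 35651, 37081 and 36475 CPM (log2 fold change 0.91 ± 0.054, edgeR adjusted p = 3.79e-11). The groups did not overlap for either gene, and *COL1A2* came close to doubling while *COL1A1* rose by less. *COL3A1*, the type III chain, rose from 12433 ± 474 to 15055 ± 220.1 CPM (log2 fold change 0.28 ± 0.061, edgeR adjusted p = 0.000878). 

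Most of the 28 tested collagen chains did not follow type I. Of them, 1 was called higher and 3 lower, against 2.61% and 1.89% of all genes, 8 rose and 8 fell by the adjusted p alone, and the median log2 fold change was -0.082. The chain that rose was *COL11A1*, a minor fibril-forming collagen best known from cartilage. It had 208, 205 and 178 CPM in the control libraries and 702, 688 and 669 CPM in the overexpression libraries, with a wide gap between the groups (log2 fold change 1.80 ± 0.064, edgeR adjusted p = 8.46e-15). *COL8A1*, a short network-forming collagen, stayed just under 2-fold, from 137 ± 3.69 to 261 ± 5.68 CPM (log2 fold change 0.92 ± 0.058, edgeR adjusted p = 9.56e-11).

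The 3 chains called lower belong to basement membranes, fibril surfaces and anchoring fibrils. *COL21A1*, the lowest of the list at a log2 fold change of -2.22, and *COL17A1*, at -1.63, were not called. *COL18A1*, a basement membrane collagen whose C-terminal fragment is endostatin, had 581, 650.2 and 702 CPM in the control and 177, 173 and 172 CPM after overexpression (log2 fold change -1.89 ± 0.076, edgeR adjusted p = 6.12e-14). *COL14A1*, which coats the surface of collagen fibrils, had 235, 220.2 and 273 CPM against 101, 103 and 99.4 CPM (log2 fold change -1.26 ± 0.07, edgeR adjusted p = 1.37e-11). In both, every control library lay above every overexpression library. *COL7A1*, the anchoring fibril collagen under epithelia, had 39.8, 42.7 and 76.2 CPM against 23.5, 24.2 and 22.2 CPM, and its control value in replicate 3 was far above the others. Its fall (log2 fold change -1.18 ± 0.35, edgeR adjusted p = 0.0309) was not called without control replicate 3 (log2 fold change -0.82), nor without any one of the overexpression libraries. The call was also lost when the overexpression libraries were summed into 1.

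Among 59 matrix glycoproteins and elastic fibre genes, 4 were called higher and 3 lower, and by the adjusted p alone 24 rose and 21 fell. The median log2 fold change was 0.13. *COMP*, a thrombospondin-family protein of cartilage and tendon, had 8.95, 10.2 and 16.9 CPM against 41.6, 40.95 and 42.1 CPM, and although control replicate 3 was the highest control it stayed far below the overexpression libraries (log2 fold change 1.79 ± 0.22, edgeR adjusted p = 0.000256, and 2.12 without that library). *SPON1*, a secreted F-spondin that was not on this list and is 1 of the 12 largest rises outside the excluded lists, had 7.8, 8.93 and 12.2 CPM against 49.5, 49.4 and 48.1 CPM (log2 fold change 2.34 ± 0.12, edgeR adjusted p = 1.78e-11). *ELN*, the elastin gene, rose from 30.4 ± 5.34 to 64.9 ± 0.606 CPM (log2 fold change 1.09, 0.97 and so under 2-fold without control replicate 3), *CTHRC1* from 4.74 ± 0.169 to 10.1 ± 0.329 CPM and the testican *SPOCK1* from 3.73 ± 0.464 to 8.43 ± 0.402 CPM. The most abundant glycoproteins moved less: *SPARC*, at 4919.9 FPKM in the control, had a log2 fold change of 0.28 ± 0.056 and *THBS1*, at 1211 FPKM, one of 0.74 ± 0.06, whereas fibronectin, *FN1*, was lower (-0.42 ± 0.058).

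*ABI3BP*, a matrix protein that interacts with the adaptor ABI3, had 50.8, 54.6 and 57.8 CPM in the control and 14.9, 16.2 and 17.97 CPM after overexpression (log2 fold change -1.73 ± 0.10, edgeR adjusted p = 2.32e-10). *OLFML2A*, an olfactomedin-domain protein, had 10.8, 12.96 and 15.3 CPM against 3.57, 3.33 and 3.48 CPM (log2 fold change -1.91 ± 0.14, edgeR adjusted p = 8.57e-10). Both showed a clear gap between the groups. *LTBP4*, which holds latent TGF-beta on elastic fibres, fell from 35.7 ± 3.01 to 17.2 ± 0.882 CPM (log2 fold change -1.05, and -0.99, under 2-fold, without control replicate 2).

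Of 35 proteoglycan and hyaluronan genes, 4 were called higher and none lower, yet 12 rose and 9 fell by the adjusted p alone and the median log2 fold change was -0.066. The large cartilage proteoglycan aggrecan, *ACAN*, had 0.861, 1.05 and 0.467 CPM against 7.53, 7.17 and 7.01 CPM, a rise from a trace level (log2 fold change 3.18 ± 0.21, edgeR adjusted p = 9.97e-10). Lubricin, *PRG4*, rose from 0.367 ± 0.121 to 1.36 ± 0.311 CPM, and the cell surface glypican *GPC6* from 62.6 ± 3.05 to 128 ± 2.4 CPM, the latter under 2-fold (0.95) after a correction for transcript length described below. Serglycin, *SRGN*, a proteoglycan of blood cell granules, had 4 counts over the 3 control libraries and 121 over the 3 overexpression libraries. Macrophage markers summed to 122 to 127 CPM in the control libraries and 221 to 229 CPM in the overexpression libraries, with *C1QA* and *CD163* at 0 counts in all control libraries, and their part in the rises of *SRGN* and of *CTSS* and *ITGB2* below was not tested. The abundant small leucine-rich proteoglycans were lower or moved little. Decorin, *DCN*, had 943, 929 and 1034 CPM against 580.3, 564 and 566 CPM (log2 fold change -0.76 ± 0.061, edgeR adjusted p = 4.04e-09), and lumican, *LUM*, fell alike from 657 ± 30.4 to 419 ± 9.68 CPM, while fibromodulin, *FMOD*, the most abundant at 2678 FPKM, had a log2 fold change of 0.17 ± 0.053.

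None of the 28 tested crosslinking and collagen-processing enzymes was called. By the adjusted p alone 6 rose and 2 fell, their log2 fold changes ran from -0.56 to 0.81, and *SERPINH1*, the collagen chaperone and the most abundant member, had one of -0.32 ± 0.064. The lysyl oxidase *LOX*, which crosslinks collagen, had 381 ± 19.04 CPM in the control and 347 ± 3.68 CPM after overexpression (edgeR adjusted p = 0.0741). Among the matrix enzymes, proteases were where calls were found.

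Of 55 matrix proteases, 5 were called higher and 2 lower, beside 2.61% and 1.89% of all genes. By the adjusted p alone 14 rose and 18 fell, and the median log2 fold change was 0.029, so the class as a whole did not rise. *MMP1*, the interstitial collagenase that cleaves type I collagen, had 119, 114 and 169 CPM in the control and 317, 318 and 311 CPM after overexpression (log2 fold change 1.23 ± 0.17, edgeR adjusted p = 0.000555). The gelatinase *MMP9* had 4.71, 6.95 and 10.2 CPM against 32.4, 32.8 and 33.97 CPM (log2 fold change 2.18 ± 0.44, edgeR adjusted p = 0.00711). In both genes control replicate 3 was the highest control and still lay well below the overexpression libraries, and without it the log2 fold changes were 1.43 and 2.51. *MMP9* was not called when the overexpression libraries were summed into 1. *ADAMTS5* and *ADAMTS1*, enzymes that cut aggrecan and versican, rose from 19.1 ± 1.37 to 47.6 ± 0.648 CPM and from 8.4 ± 0.66 to 19.9 ± 1.22 CPM. The lysosomal cathepsin *CTSS* rose from 1.7 ± 0.464 to 6.7 ± 0.221 CPM, and *CTSK*, a collagen-degrading cathepsin with 769 ± 26.2 against 1487 ± 35.6 CPM, stayed just under 2-fold and is uncertain because its estimated counts were not whole and may share reads with another gene. *MMP7* fell from 42 to 4 counts over 3 libraries, and *ADAMTSL1*, which lacks a protease domain, from 77.8 ± 4.5 to 38.2 ± 0.773 CPM (log2 fold change -1.02, and -0.98, under 2-fold, without control replicate 1). *MMP2*, the most abundant protease at 1136 FPKM in the control, had a log2 fold change of -0.26 ± 0.065.

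Protease inhibitors gave 4 called falls and no rise among 23 tested, against 1.89% of all genes lower, with 7 lower and 6 higher by the adjusted p alone. The 4 were *SPINT1*, *SPINT2*, *SLPI* and *TFPI*, inhibitors of trypsin-like, neutrophil and coagulation proteases, and all were scarce. *SPINT2* had 1.49, 1.81 and 2.68 CPM in the control and 0.288, 0.287 and 0.928 CPM after overexpression (log2 fold change -1.98 ± 0.51, edgeR adjusted p = 0.00602), a log2 fold change of -2.76 without overexpression replicate 3. *TFPI* had 25 counts in the control against 5 (log2 fold change -2.25 ± 0.62, edgeR adjusted p = 0.00573), a log2 fold change of -2.92 without overexpression replicate 1. *SPINT1*, with 79 against 16 counts, was not called once any one of the 6 libraries was left out. The call was also lost when the overexpression libraries were summed into 1 and without a filter on low counts.

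**Figure D2:**
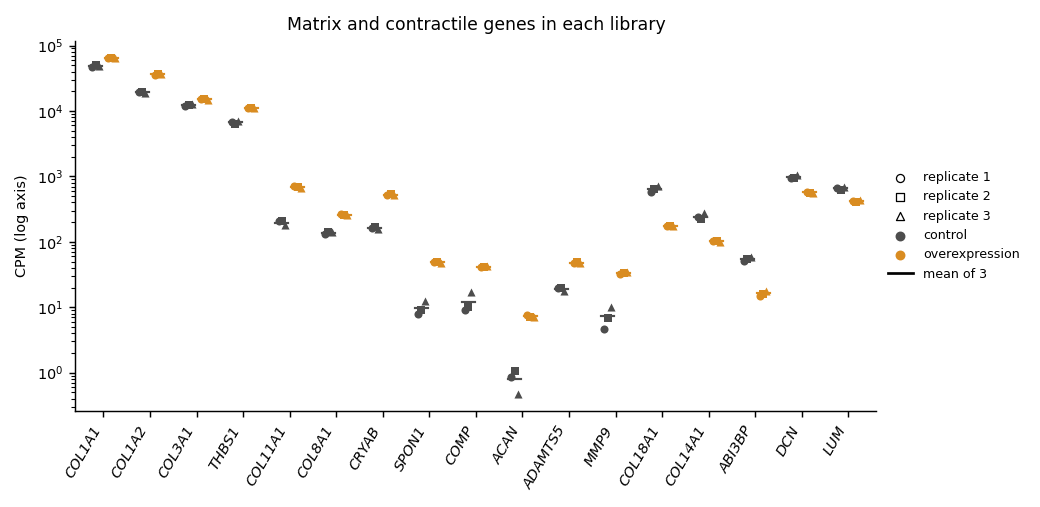
CPM of matrix genes and of *CRYAB* in each library (log axis), with control in grey, overexpression in orange, the marker shape giving the replicate and the line the mean of 3. The overexpression libraries lie on top of each other, *COL11A1*, *SPON1* and *ACAN* are higher in all of them than in any control, and *COL18A1*, *COL14A1*, *ABI3BP*, *DCN* and *LUM* are lower.

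Integrins, the cell's matrix receptors, had 1 called rise and 2 called falls among 21 tested, beside 2.61% higher and 1.89% lower of all genes. At the adjusted p alone, 7 rose and 7 fell. *ITGB1*, the common beta subunit and the most abundant at 300.3 FPKM, rose by less than 2-fold, from 1063 ± 70.2 to 1548 ± 31.05 CPM (log2 fold change 0.54 ± 0.06, edgeR adjusted p = 3.89e-07). *ITGB4*, the hemidesmosome subunit of epithelia, had 7.17, 7.41 and 14.3 CPM in the control and 4.08, 4.47 and 4.41 CPM after overexpression, and *ITGB6*, also an epithelial subunit, fell from 0.755 ± 0.306 to 0.192 ± 0.0671 CPM. The fall of *ITGB4* was not called without control replicate 3 (log2 fold change -0.75) or when the overexpression libraries were summed into 1. *ITGB2*, the leukocyte subunit, rose from 1.59 ± 0.433 to 4.65 ± 0.518 CPM. Of 15 laminin and basement membrane genes, *AGRN* alone was called, higher, from 22.4 ± 2.96 to 46.8 ± 1.61 CPM (log2 fold change 1.06, under 2-fold at 0.998 without control replicate 1 and at 0.95 after the length correction), while perlecan, *HSPG2*, was lower at a log2 fold change of -0.35 ± 0.054.

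The secreted proteins showed their largest falls among complement and acute-phase genes. Of 28 tested, 6 were called lower and none higher, and by the adjusted p alone 17 fell and 2 rose. The median log2 fold change was -0.25, against 0.0060 over all genes. *C3*, the central complement component, had 31.2, 30.1 and 31.7 CPM in the control and 1.55, 1.66 and 1.68 CPM after overexpression (log2 fold change -4.24 ± 0.11, edgeR adjusted p = 5.33e-17). The acute-phase protein gene *SAA3* had 199, 205 and 242 CPM against 25.9, 22.8 and 22.4 CPM (log2 fold change -3.18 ± 0.11, edgeR adjusted p = 1.1e-13). Both had narrow control values and no overlap. Factor D, *CFD*, also called adipsin and a product of adipocytes, had 9.93, 9.28 and 17.7 CPM against 1.27, 1.66 and 1.28 CPM, with control replicate 3 the highest (log2 fold change -3.13 ± 0.42, edgeR adjusted p = 0.000838, and -2.77 without that library). The lectin-pathway protease *MASP1* fell from 218 ± 38.8 to 68.8 ± 3.89 CPM, the collectin *COLEC12* from 209.8 ± 14.6 to 96.6 ± 1.78 CPM and factor B, *CFB*, from 98 to 22 counts. Clusterin, *CLU*, the most abundant of the list at 1755 FPKM, moved little (-0.25 ± 0.068).

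Chemokines were few and lower. Of 6 tested, 4 were called lower and none higher. *CXCL14*, the one abundant chemokine, had 279.8, 316 and 601 CPM in the control and 85.7, 81.8 and 82.2 CPM after overexpression (log2 fold change -2.26 ± 0.32, edgeR adjusted p = 0.0015). All controls were above all overexpression libraries, but control replicate 3 was close to 2 times the other controls, and without it the log2 fold change was -1.84. The fall of *CXCL14* was not called when the overexpression libraries were summed into 1. The eosinophil attractant *CCL11* had 87 against 12 counts over 3 libraries, *CXCL12*, which draws CXCR4-bearing cells, 133 against 37, and the membrane-anchored *CX3CL1* 212 against 94, the last not called without control replicate 3. *AMCF-II*, a pig CXC chemokine that the list did not hold, had 12.9, 12.4 and 20.3 CPM against 4.31, 3.9 and 3.59 CPM (log2 fold change -1.95 ± 0.20, edgeR adjusted p = 1.04e-05, and -1.68 without control replicate 3). Of 19 interleukins and other cytokines, 9 fell and 1 rose by the adjusted p, and the median log2 fold change was -0.38. *IL7*, the one called, was also the one that rose, from 1.37 ± 0.164 to 3.28 ± 0.585 CPM.

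Insulin-like growth factor binding proteins went both ways. *IGFBP3* had 13.3, 12.3 and 29.1 CPM in the control and 4.77, 3.84 and 4.17 CPM after overexpression, and again control replicate 3 was the highest (log2 fold change -2.09 ± 0.52, edgeR adjusted p = 0.0164, and -1.58 without that library). Its fall was not called when overexpression replicate 2 or 3 was left out (log2 fold change -2.02 and edgeR adjusted p = 0.0544 for the former). The call was also lost with replicate number as a block and with the overexpression libraries summed into 1. *IGFBP6*, which prefers IGF-II, fell from 35.5 ± 5.87 to 15.1 ± 0.897 CPM (log2 fold change -1.23 ± 0.11, edgeR adjusted p = 2.69e-08), and *IGFBP5* rose from 51.5 ± 4.39 to 109 ± 2.9 CPM (log2 fold change 1.08 ± 0.12, edgeR adjusted p = 1.78e-05). *IGFBP2*, the most abundant at 2058 FPKM, had a log2 fold change of -0.36 (edgeR adjusted p = 0.0695).

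Of the antagonists of differentiation signals, *GREM1* and *SFRP5* were called higher, while others were lower without being called. *GREM1*, gremlin, a secreted antagonist of bone morphogenetic proteins, had 287, 302 and 307 CPM in the control and 671, 663 and 679 CPM after overexpression (log2 fold change 1.17 ± 0.067, edgeR adjusted p = 2.06e-11). *SFRP5*, a soluble Wnt inhibitor known as an adipokine in the mouse, had 1.78, 2.28 and 1.22 CPM against 5.23, 5.91 and 7.01 CPM (log2 fold change 1.78 ± 0.20, edgeR adjusted p = 4.02e-07). Both genes kept the groups apart in every library. The BMP-family ligand *GDF6* rose as well, from 7.47 ± 0.887 to 16.1 ± 0.79 CPM. *WNT5A*, a ligand of the beta-catenin-independent Wnt pathway, had 11.5, 12.03 and 23.9 CPM against 5.003, 5.91 and 6.03 CPM, with control replicate 3 the highest and a log2 fold change of -1.48 with that library and -1.06 without it. Its fall was not called when the overexpression libraries were summed into 1. *RSPO1*, which amplifies Wnt signals, fell from 7.06 ± 0.606 to 3.21 ± 0.475 CPM. The antagonist *NOG* had a log2 fold change of -0.63, the lowest of the TGF-beta and BMP list, and *SFRP4* one of -0.21, neither of them called. In the 2 lists, 2 of 21 TGF-beta and BMP genes were called higher and none lower, and 1 of 20 Wnt genes was called higher and 2 lower. By the adjusted p alone 8 rose and 2 fell in the TGF-beta and BMP list, and 6 rose and 5 fell in the Wnt list. The abundant members of both, *FSTL1* at 762 FPKM and *SFRP2* at 1533 FPKM, had log2 fold changes of 0.13 ± 0.059 and 0.20 ± 0.064.

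Among 42 growth factors, 1 was called higher and 3 lower, with 11 up and 11 down by the adjusted p alone. *FGF10*, a factor that promotes adipogenesis in the mouse, had 4.36, 2.92 and 2.92 CPM in the control and 1.5, 0.86 and 1.51 CPM after overexpression (log2 fold change -1.40 ± 0.23, edgeR adjusted p = 5.17e-05). The EGF-receptor ligand *EREG* fell from 31.3 ± 9.88 to 12.003 ± 1.65 CPM, with estimated counts that were mostly not whole, and *HGF*, hepatocyte growth factor, from 2.05 ± 0.709 to 0.941 ± 0.15 CPM, not called without control replicate 3. Receptor tyrosine kinases, which receive such factors, gave 4 called rises and no fall among 32, beside 2.61% higher and 1.89% lower of all genes. By the adjusted p alone 8 rose and 5 fell, and the median log2 fold change was 0.13. The class did not rise in sum, with 2771 ± 12.2 CPM in the control and 2549.5 ± 6.88 CPM after overexpression. *RET*, the receptor of the GDNF family, had 2.12, 1.98 and 1.52 CPM in the control and 6.38, 7.4 and 5.68 CPM after overexpression (log2 fold change 1.79 ± 0.18, edgeR adjusted p = 1.09e-07). *EPHA4* rose from 4.78 ± 0.501 to 9.72 ± 0.278 CPM, close to 2-fold and just under it without control replicate 2, without overexpression replicate 2 or after the length correction (lowest log2 fold change 0.94). *MERTK*, a phagocyte receptor, had 2 against 38 counts, and macrophage markers rose beside it.

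Among called genes, control replicates 1 and 3 were often the 2 extremes of the control group. The same counts over all tested genes were not made, and replicates 1 and 3 were also the farthest apart over genes at large. The counts that follow therefore do not set called genes apart from the rest. Of the 241 called falls, replicate 3 was the highest control library in 142, against 35 for replicate 1 and 64 for replicate 2. Replicate 1 was the lowest control in 128 of these falls, against 59 for replicate 2 and 54 for replicate 3. Of the 332 called rises, replicate 3 was the lowest control in 165, against 105 for replicate 1 and 62 for replicate 2. Replicate 1 was the highest control in 133 of these rises, against 119 for replicate 2 and 80 for replicate 3. Epithelial markers summed to 40.3, 44.8 and 104 CPM in control replicates 1 to 3 and to 24.1 to 28.1 CPM in the overexpression libraries. Of 9 tested epithelial markers 3 were called lower, *KRT19*, *CLDN7* and *ESRP1*, none was called higher, and the highest of the list, *KRT5*, had 18.1, 21.1 and 56.4 CPM in the control and 17.6, 15.2 and 16.9 CPM after overexpression (edgeR adjusted p = 0.213, log2 fold change -0.94 with control replicate 3 and -0.24 without it). The keratin *KRT8* had 4.48, 5.49 and 17.4 CPM against 1.96, 2.01 and 2.49 CPM and E-cadherin, *CDH1*, 3.21, 2.98 and 6.3 CPM against 1.44, 0.918 and 1.57 CPM, so that control replicate 3 again lay highest. Without it the log2 fold change of *KRT8* went from -2.08 to -1.21 and that of *CDH1* from -1.67 to -1.24. *EPCAM* had 11 counts over the control libraries and 3 over the overexpression libraries, and *KRT18* 1 and 0. *ESRP1*, with 46 against 20 counts, was not called without control replicate 2 or 3 or without overexpression replicate 1 or 2. DESeq2 did not call it either, nor was it called with the overexpression libraries summed into 1. *KRT19* was higher in all control libraries, with 4.93, 5.31 and 6.71 CPM against 0.633, 1.09 and 0.348 CPM (log2 fold change -3.02 ± 0.31, edgeR adjusted p = 4.28e-07). The part of these markers in the falls of *CXCL14*, *IGFBP3*, *CFD*, *WNT5A*, *COL7A1*, *ITGB4* and the *SPINT* genes was not tested. Without control replicate 3, 341 genes were called higher and 219 lower.

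**Figure D3:**
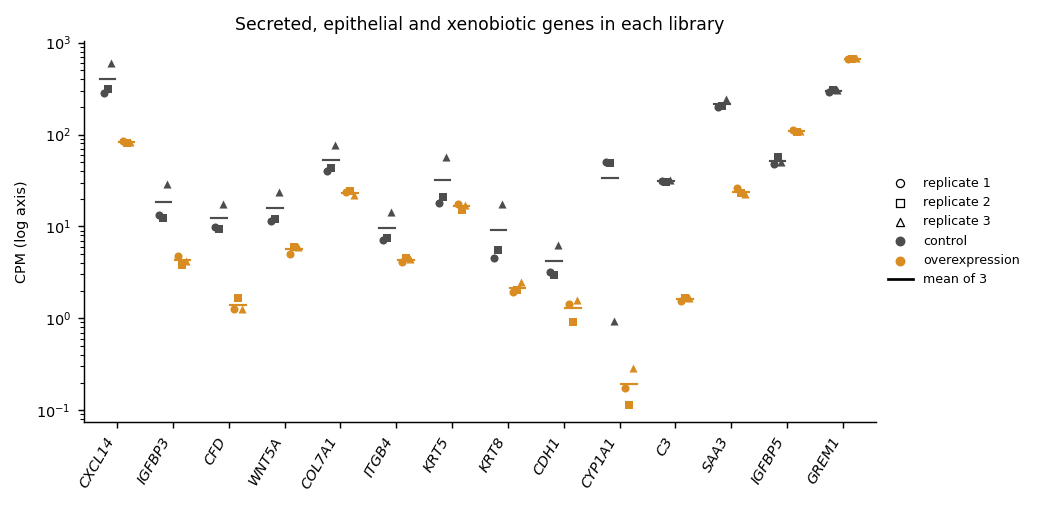
CPM of secreted, epithelial and xenobiotic genes in each library (log axis), with control in grey, overexpression in orange, triangles for replicate 3 and the line at the mean of 3. From *CXCL14* to *CDH1* the control triangle lies above the other controls, in *CYP1A1* it lies far below them, and in *C3*, *SAA3*, *IGFBP5* and *GREM1* the 3 controls lie together.

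Transcription factor genes were called about as often as genes at large. Over all transcription factor lists, 682 genes were tested, 15 were called higher and 10 lower, beside 2.61% and 1.89% of all genes, and the median log2 fold change was -0.054. By the adjusted p alone 101 rose and 190 fell. None of the 242 tested ZNF genes was called, although 23 rose and 55 fell by the adjusted p. Of 31 HOX genes, which record where along the body a cell came from, *HOXD13*, at 15 against 52 counts, was the only one called, and *HOXC8*, the most abundant, had 19.5 ± 1.17 CPM against 16.1 ± 0.582 CPM.

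The abundant transcription factor that fell most was *SREBF1*, the activator of fatty acid synthesis genes. It had 302, 341 and 327 CPM in the control and 103, 107 and 97.6 CPM after overexpression, a fall to under 1 in 3 with no overlap (log2 fold change -1.66 ± 0.079, edgeR adjusted p = 1.34e-12). *CEBPD*, an early adipogenic factor, had 559, 629 and 642 CPM against 363, 372 and 369 CPM (log2 fold change -0.73 ± 0.065, edgeR adjusted p = 1.83e-08), and *PRRX2*, a homeobox gene of mesenchyme, 237, 283 and 306 CPM against 167, 168 and 166 CPM (log2 fold change -0.72 ± 0.077, edgeR adjusted p = 2.37e-07). Neither reached 2-fold. *PPARG*, the master regulator of adipogenesis, was at a low level in both groups, 7.45 ± 0.336 and 5.53 ± 0.293 CPM (log2 fold change -0.43 ± 0.12, edgeR adjusted p = 0.00613). *HIF1A*, the hypoxia factor, was higher, with 329 ± 28.6 against 506 ± 5.4 CPM (log2 fold change 0.62 ± 0.064, edgeR adjusted p = 1.29e-07), and *ATF4* and *ID3*, the most abundant of their families, had log2 fold changes of 0.0063 ± 0.058 and 0.081 ± 0.062.

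The factors that rose were scarce, most of them from under 2 CPM. *HES4*, a repressor of the family that Notch receptors induce, had 1.15, 1.81 and 1.52 CPM in the control and 9.78, 9.75 and 9.39 CPM after overexpression (log2 fold change 2.69 ± 0.14, edgeR adjusted p = 7.13e-12), but none of its estimated counts was whole. *NOTCH3* itself, the receptor of mural cells, rose from 115 ± 2.45 to 240.2 ± 7.47 CPM (log2 fold change 1.06, and 0.95, under 2-fold, after the length correction). *FOXS1*, a forkhead gene of perivascular and neural crest cells, had 4.76, 4.09 and 5.89 CPM against 14.2, 13.99 and 14.7 CPM (log2 fold change 1.54 ± 0.11, edgeR adjusted p = 8.46e-10), and *ID4*, an inhibitor of bHLH factors, 5.16, 4.9 and 5.6 CPM against 12.3, 12.04 and 13.1 CPM (log2 fold change 1.26 ± 0.13, edgeR adjusted p = 1.39e-07). In each of these the groups were well apart. *SCX*, the tendon factor scleraxis, rose from 1.41 ± 0.196 to 3.26 ± 0.312 CPM, *DLX5*, a bone factor, from 0.736 ± 0.193 to 2.9 ± 0.228 CPM and *NKX2-2*, a neural and pancreatic factor, from 0.736 ± 0.171 to 2.94 ± 0.138 CPM. *ETV7*, an ETS factor that interferon induces in human cells, had 0.689, 0.409 and 0.408 CPM against 4.6, 4.65 and 5.68 CPM (log2 fold change 3.29 ± 0.22, edgeR adjusted p = 3.83e-10), and 44 of 85 interferon-stimulated genes were called higher beside it.

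Of 31 nuclear receptors 4 were called higher and none lower, though 13 fell and 7 rose by the adjusted p and the median log2 fold change was -0.23. They included the mineralocorticoid receptor *NR3C2*, from 1.41 ± 0.0417 to 3.44 ± 0.543 CPM, the oestrogen receptor *ESR2*, from 21 to 60 counts, and *NR5A2*, an activator of steroid and bile acid genes, from 8 to 60 counts. The 2 liver X receptors, which sense oxysterols, were more abundant and lower, *NR1H3* with 65.3 ± 3.22 against 48.9 ± 2.49 CPM (log2 fold change -0.42 ± 0.063, edgeR adjusted p = 2.17e-05) and *NR1H2* with a log2 fold change of -0.25 ± 0.072. Among the scarce factors that fell, *SALL1* had 2.87, 2.22 and 2.86 CPM against 1.27, 1.03 and 0.638 CPM (log2 fold change -1.43 ± 0.24, edgeR adjusted p = 6.29e-05), and *BNC1*, a factor of epithelia, had 43 against 7 counts, its fall reduced to a log2 fold change of -1.90 without control replicate 3.

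Several fatty acid synthesis genes were lower beside *SREBF1*, and several cholesterol synthesis genes were higher. Of 34 fatty acid and triglyceride synthesis genes *SREBF1* was the one called, and 11 fell and 6 rose by the adjusted p alone. The median log2 fold change was -0.11. *FASN*, fatty acid synthase, had 891, 902 and 840.1 CPM in the control and 465, 454 and 447 CPM after overexpression, just under 2-fold lower (log2 fold change -0.95 ± 0.085, edgeR adjusted p = 5.19e-08). The desaturases *SCD* and *FADS2* fell from 1019 ± 79.9 to 704 ± 7.52 CPM and from 347 ± 10.4 to 235 ± 0.807 CPM, with no overlap in either. *ACLY*, which makes the acetyl-CoA for the pathway, was higher, at 185 ± 5.24 against 224 ± 3.7 CPM (log2 fold change 0.27 ± 0.059, edgeR adjusted p = 0.000838), so the enzymes did not move as a block. 

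Of 30 cholesterol synthesis and uptake genes 2 were called lower and none higher, whereas 12 rose and 8 fell by the adjusted p alone. *HMGCS1*, an early enzyme of the pathway, had 72.4, 67.4 and 53.8 CPM in the control and 118, 121 and 121 CPM after overexpression (log2 fold change 0.90 ± 0.082, edgeR adjusted p = 5.09e-08), with estimated counts that were partly not whole. The called falls included *ABCG1*, a cholesterol exporter, which had 6.02, 6.48 and 5.42 CPM against 0.288, 0.287 and 0.058 CPM (log2 fold change -4.78 ± 0.27, edgeR adjusted p = 2.06e-11), or 309 against 11 counts over 3 libraries. The second exporter, *ABCA1*, had 305, 257 and 214 CPM against 157, 157 and 162 CPM (log2 fold change -0.71 ± 0.12, edgeR adjusted p = 0.000566), and *MYLIP*, a ubiquitin ligase, 24.3, 23.7 and 22.4 CPM against 11.2, 12.4 and 9.97 CPM (log2 fold change -1.07 ± 0.093, edgeR adjusted p = 1.54e-08), under 2-fold at -0.99 without overexpression replicate 3. *SREBF1*, *ABCA1*, *ABCG1* and *MYLIP* are all known targets of liver X receptors in mouse and human cells, and the last 3 were put beside *SREBF1* after their values had been seen, so their common direction is a description.

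**Figure D4:**
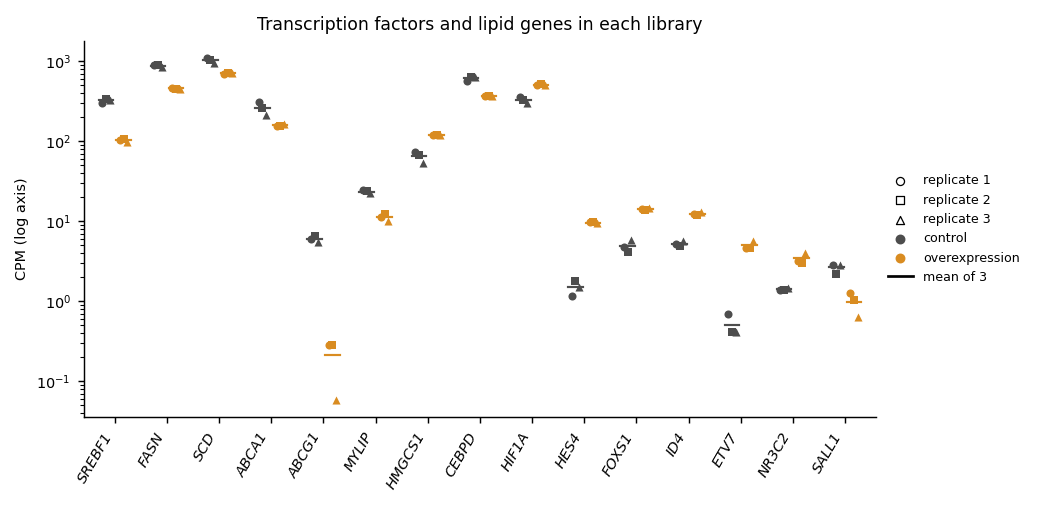
CPM of lipid genes and transcription factors in each library (log axis), with control in grey, overexpression in orange, the marker shape giving the replicate and the line the mean of 3. *SREBF1*, *FASN*, *SCD*, *ABCA1*, *ABCG1* and *MYLIP* are lower and *HMGCS1* is higher in all overexpression libraries, and the factors that rise, apart from *HIF1A*, stay below every *SREBF1* value.

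Few members of the other lipid lists were called. None of 44 fatty acid oxidation and peroxisome genes was called, with 9 up and 12 down by the adjusted p. Among 30 lipid droplet, lipase and fatty acid uptake genes *PLIN1*, the main perilipin of white fat, was the one called, from 12 to 42 counts over 3 libraries, and 9 rose and 6 fell by the adjusted p. Of 12 tested adipocyte markers 2 were called higher, *PLIN1* and *CD36*, and 1 lower, *CFD*, with a median log2 fold change of 0.30 and a summed level of 130 to 151 CPM in the control libraries against 163 to 168 CPM after overexpression. *CD36*, the fatty acid translocase, which the uptake list did not hold, had 3.21, 3.33 and 2.74 CPM in the control and 13.7, 12.8 and 13.6 CPM after overexpression (log2 fold change 2.11 ± 0.12, edgeR adjusted p = 3.17e-11), *FABP4*, the fat cell fatty acid binding protein, 7.63, 7.53 and 8.34 CPM against 13.4, 13.6 and 13.4 CPM (log2 fold change 0.78 ± 0.11, edgeR adjusted p = 1.17e-05) and *LPL* 63.1, 58.02 and 74.2 CPM against 84.7, 83.2 and 83.999 CPM (edgeR adjusted p = 0.125). *ADIPOQ*, the adiponectin gene that defines mature adipocytes, had 11 counts over the control and 9 over the overexpression libraries. The cultures labelled adipocytes therefore carried adiponectin at trace level in both groups, and *CD36* is also a gene of macrophages, of whose markers 20 of 29 were called higher, and their part in its rise was not tested. Of 16 tested preadipocyte and fibroblast markers none was called, 10 fell and 5 rose by the adjusted p, and the median log2 fold change was -0.21. Their summed level went from 9.84% of all CPM in the control to 13.1% after overexpression, the rise lying mainly in *COL1A1*, *COL1A2* and *COL3A1*, which the list shares with the collagens.

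Central carbon metabolism gave no called gene. None of 33 glycolysis genes and none of 30 tricarboxylic acid cycle genes was called, with 10 up and 9 down and with 5 up and 9 down by the adjusted p. *GAPDH*, the most abundant glycolytic gene at 6740.0 FPKM, was lower by less than 2-fold, 7025 ± 508 against 5438 ± 60.8 CPM (log2 fold change -0.37 ± 0.06, edgeR adjusted p = 4.7e-05). Of 41 genes for amino acid, serine and one-carbon metabolism, *CBS*, which makes cystathionine, had 56.1, 56.6 and 68.6 CPM against 25.5, 23.5 and 24.4 CPM (log2 fold change -1.30 ± 0.092, edgeR adjusted p = 1.17e-09), and the mitochondrial arginase *ARG2* fell from 3.15 ± 0.408 to 1.21 ± 0.213 CPM. *PHGDH*, the first enzyme of serine synthesis, was lower by less than 2-fold (log2 fold change -0.75 ± 0.059), with no whole estimated count. None of 32 antioxidant and glutathione genes was called, and the ferritin gene *FTH1*, the most abundant, had a log2 fold change of -0.39 ± 0.07. Over the alternative settings described below, that of *FTH1* ran from -0.45 to -0.18 and that of *GAPDH* from -0.43 to -0.24. The metallothionein *MT-2B*, a metal-binding protein not on these lists, had 27.02, 29.2 and 21.5 CPM against 6.84, 5.39 and 6.2 CPM (log2 fold change -2.08 ± 0.14, edgeR adjusted p = 2.13e-09).

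Xenobiotic enzymes held the largest fall of the lists described here, and it was uneven among the controls. Of 62 tested, 2 were called higher and 6 lower, beside 2.61% and 1.89% of all genes. At the adjusted p alone, 13 rose and 22 fell. *CYP1A1*, the cytochrome that aryl hydrocarbon receptor ligands induce, had 50.4, 48.7 and 0.933 CPM in the control and 0.173, 0.115 and 0.29 CPM after overexpression. Control replicates 1 and 2 were high, and replicate 3 was nearer to the overexpression libraries than to them, though still above. The fall (log2 fold change -7.39 ± 2.19, edgeR adjusted p = 0.0328) was not called in 8 of 14 alternatives, with edgeR adjusted p up to 0.19, among them leaving out control replicate 1 or 2 or any overexpression library. *AHRR*, the repressor that the same receptor induces, had 75.8, 84.5 and 54.4 CPM against 30.5, 30.9 and 32.6 CPM (log2 fold change -1.19 ± 0.14, edgeR adjusted p = 6.35e-05), and *TIPARP*, a further known target, 56.8, 55.6 and 36.2 CPM against 36.3, 32.8 and 34.5 CPM, with control replicate 3 among the overexpression values. *ALDH3B1*, with no whole estimated count, fell from 35.6 ± 1.54 to 17.4 ± 0.545 CPM and *SULT1A3* from 30.3 ± 7.01 to 14.1 ± 0.194 CPM, and neither was called without control replicate 3 or after the length correction.

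Among the metabolism lists the largest median shift was in the respiratory chain, and it moved with transcript length. In summed CPM, fatty acid and triglyceride synthesis genes fell to 0.744 of the control and respiratory chain genes to 0.763. Of 91 nuclear genes of the respiratory chain and ATP synthase, 8 were called lower and none higher, and by the adjusted p alone 63 fell and 5 rose, against 23.4% and 23.9% of all genes. The median log2 fold change was -0.34. *NDUFA3*, a complex I subunit, had 51.4, 65.6 and 68.8 CPM in the control and 18.7, 16.1 and 19.9 CPM after overexpression (log2 fold change -1.76 ± 0.11, edgeR adjusted p = 4.28e-10). *NDUFB4*, also of complex I, had 53.2, 64.6 and 66.6 CPM against 24.7, 22.4 and 25.7 CPM (log2 fold change -1.34 ± 0.082, edgeR adjusted p = 5.69e-11) and *ATP5MC2*, a rotor subunit of ATP synthase, 234, 245 and 259 CPM against 121, 119 and 119.9 CPM (log2 fold change -1.04 ± 0.058, edgeR adjusted p = 1.48e-11). The controls lay above the overexpression libraries in each. Without control replicate 3 *ATP5MC2* was under 2-fold, at -0.999.

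These genes are short, with a median length of 450 bases as implied by count and FPKM, and short genes were lower as a whole. The median log2 fold change was -0.39 for 428 genes under 500 bases, -0.20 from 500 to 1000, -0.074 from 1000 to 2000, 0.031 from 2000 to 4000 and 0.10 for 3789 genes over 4000 bases. With ribosomal protein and respiratory chain genes taken out, genes under 500 bases still had a median of -0.31. After correction of each library for the trend with length, the respiratory list had 2 called falls in place of 8, 28 falls and 14 rises by the adjusted p alone and a median of -0.086, and *NDUFA3* kept its call at -1.22 while *NDUFB4*, *ATP5MC2*, *COX7A1*, *COX7A2* and *NDUFB1* did not. For the long collagen genes the correction was small, with *COL1A1* at 0.32, *COL1A2* at 0.82 and *COL11A1* at 1.70. Whether the trend comes from the cells or from the libraries was not tested.

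**Figure D5:**
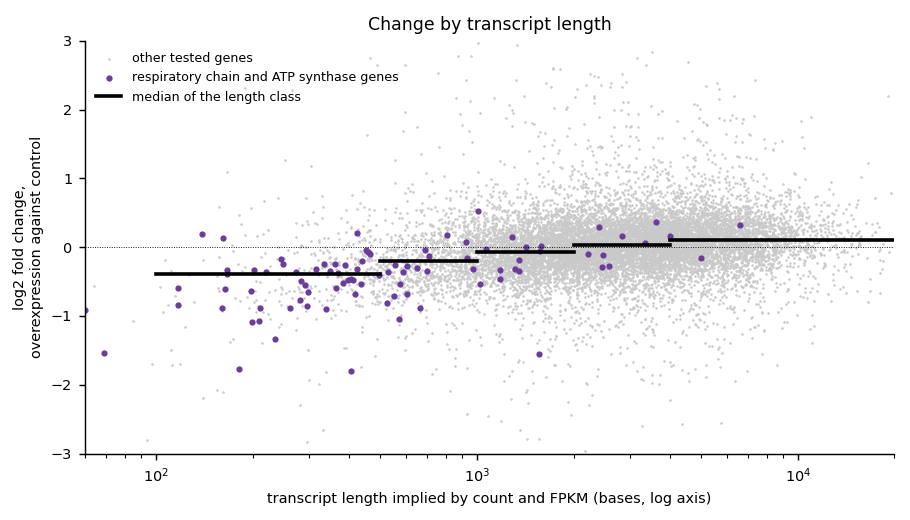
Log2 fold change of each tested gene (vertical axis) against the transcript length in bases implied by its count and FPKM (log axis), with respiratory chain and ATP synthase genes in purple and black bars at the median of each length class. The medians climb from -0.39 under 500 bases to 0.10 over 4000 bases, most purple points lie in the shortest class, and 87 genes beyond a change of 3 and 8 beyond the length range are not drawn.

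Contractile and mural cell genes were the list with the highest median among those outside the excluded ones that had at least 30 tested members. Of 33 smooth muscle and contractile genes, 5 were called higher and 1 lower, 19 rose and 6 fell by the adjusted p alone, and the median log2 fold change was 0.31. *CRYAB*, a small heat shock protein of muscle, had 163, 170.2 and 157 CPM in the control and 524, 533 and 525 CPM after overexpression (log2 fold change 1.69 ± 0.058, edgeR adjusted p = 5.73e-15). *MYH11*, smooth muscle myosin, had 7.75, 11.3 and 7.29 CPM against 30.8, 34.1 and 31.8 CPM (log2 fold change 1.88 ± 0.12, edgeR adjusted p = 5.78e-10). The groups were far apart in both. The rises also included *NOTCH3*, given above, and *PLN*, phospholamban, with 7 against 38 counts. The abundant members did not rise as much: smooth muscle actin, *ACTA2*, at 5992 FPKM, had a log2 fold change of 0.19 ± 0.056, and *TAGLN* was lower at -0.17 ± 0.064. *ACTC1*, cardiac actin, had 6.14, 8.35 and 1.75 CPM against 1.27, 1.03 and 1.22 CPM, with control replicate 3 near the overexpression libraries. Its fall was not called without control replicate 1, without overexpression replicate 2 or 3 or with the overexpression libraries summed into 1.

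Cell cycle and stress lists showed little beyond 1 gene. Of 59 cell cycle and DNA replication genes, the inhibitor *CDKN1C*, p57, was the one called, from 3.11 ± 0.169 to 1.33 ± 0.259 CPM (log2 fold change -1.23 ± 0.19, edgeR adjusted p = 2.96e-05), with 7 up and 17 down by the adjusted p. None of 31 genes of the unfolded protein and integrated stress responses was called, with 13 up and 3 down by the adjusted p. In the 8 lists named above without a called gene in edgeR, DESeq2 called none either, and at an unadjusted p under 0.05 in edgeR 8 crosslinking enzymes were higher and 5 lower, 30 and 62 ZNF genes, 10 and 11 glycolysis genes, 6 and 9 tricarboxylic acid cycle genes, 9 and 12 fatty acid oxidation genes, 7 and 13 antioxidant genes, 5 and 10 preadipocyte and fibroblast markers and 14 and 4 stress genes. Of 4 tested Schwann and neural markers *NCAM1* alone was called, and the median log2 fold change was -0.06. This adhesion molecule of nerve and muscle had 29.8, 32.5 and 28.6 CPM in the control and 109, 104 and 109 CPM after overexpression (log2 fold change 1.83 ± 0.069, edgeR adjusted p = 2.08e-14). Of 8 tested endothelial markers *LYVE1* and *PROX1* were called higher and none lower, with 2 up and 2 down by the adjusted p, a median log2 fold change of -0.20 and a summed level that went from 81.003 ± 3.64 to 68.9 ± 3.78 CPM. *PROX1*, a lymphatic transcription factor, was at the 2-fold threshold and not called without control replicate 3 (log2 fold change 0.59), without overexpression replicate 1 or 3 or in DESeq2. Further settings also took its call away, among them the overexpression libraries summed into 1 and the length correction. *LYVE1*, a lymphatic receptor that macrophages also carry, had 0.516, 0.759 and 0.642 CPM against 5.58, 6.54 and 5.97 CPM (log2 fold change 3.23 ± 0.21, edgeR adjusted p = 8.54e-10). The proapoptotic gene *HRK*, also among the 12 largest rises, had 4.3, 4.26 and 3.03 CPM against 16.96, 15.7 and 13.97 CPM (log2 fold change 2.004 ± 0.14, edgeR adjusted p = 3.91e-10), and the sorting nexin *SNX10* 3.1, 2.8 and 3.21 CPM against 17.1, 17.1 and 18.1 CPM (log2 fold change 2.52 ± 0.11, edgeR adjusted p = 1.66e-13). In *NCAM1*, *LYVE1*, *HRK* and *SNX10* no control library reached an overexpression library.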

How the data were processed

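RNA-seq libraries, 3 of the control and 3 of the overexpression group, were compared. The authors checked reads with FastQC, aligned them with HISAT and deposited estimated counts and FPKM for 16562 genes. No source used here gives the counting tool, genome build or strand setting, and overlapping antisense genes cannot be told apart. The labels name rRNA removal and the methods name oligo(dT) priming. Of the estimated counts 5.38% were not whole, and such genes may share reads. Sequences were not printed because no genome was used.

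Estimated counts were rounded and tested in R 4.3.3 with edgeR 4.0.16 (TMM, filterByExpr, robust quasi-likelihood F test, all 9 libraries in 1 fit, Benjamini-Hochberg adjustment over 12721 genes, biological coefficient of variation 0.0607). A gene was called at an adjusted p under 0.05 and at least 2-fold. The standard error of a log2 fold change was taken as its size over the root of F, and errors of CPM are SDs of 3 libraries. Intervals and p-values cover these cultures only. Alternatives used DESeq2 1.42.0, limma 3.58.1 (pseudocount 1), no TMM, no or a stricter filter (1 CPM in 3 libraries), 6 libraries, a replicate block, summed overexpression libraries, other folds, each library left out and a length correction.

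The genes and lists were chosen with earlier results of these data known. Named genes are the 12 largest changes in each direction outside the excluded lists (called, at least 5 CPM, no overlap), up to 4 called members of each list with at least 1 CPM, its most abundant member, and *PLAAT3*. Other genes were named after their values had been seen, among them *COL1A2*, *COL3A1*, *COL8A1*, *THBS1*, *FN1*, *DCN*, *LUM*, *ELN*, *CTHRC1*, *LTBP4*, *MMP1*, *MMP7*, *CTSK*, *ADAMTSL1*, *LOX*, *PRG4*, *ITGB6*, *SPINT1*, *SLPI*, *MASP1*, *COLEC12*, *CCL11*, *MERTK*, *KRT8*, *CDH1*, *EPCAM*, *KRT18*, *CLDN7*, *ESRP1*, *HOXD13*, *CEBPD*, *PPARG*, *HIF1A*, *NOTCH3*, *ESR2*, *NR5A2*, *NR1H3*, *BNC1*, *FASN*, *SCD*, *ACLY*, *HMGCS1*, *ABCA1*, *MYLIP*, *PLIN1*, *FABP4*, *ADIPOQ*, *PHGDH*, *AHRR*, *TIPARP*, *ALDH3B1*, *ATP5MC2*, *COX7A2*, *NDUFB1*, *PLN*, *TAGLN*, *SLC27A2*, *PROX1* and *CLIC6*. Some genes that these rules or lists hold are not reported here, and the counts of their lists include them.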

Additional observations from a re-analysis of the deposited data

How the results depend on the processing

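Of the counts over all genes, DESeq2, library totals without TMM, a looser or stricter filter on low counts, the 6 libraries fitted alone, the overexpression libraries summed to 1, the replicate block and the length correction all stayed within 1.5 times of 332 higher and 241 lower, the widest being 471 and 303 without a filter. Leaving out 1 library gave 337 to 368 higher and 219 to 270 lower. With limma on log2(FPKM + 1), which understates changes of scarce genes, 125 were higher and 75 lower. Without a fold threshold 3042 were higher and 2978 lower, and at 4-fold 115 and 39, which moved the higher share from 57.9% to 74.7%. Replicate numbers did not pair the samples (correlations of deviations -0.098, -0.011 and -0.038), and the replicate block gave 332 higher and 248 lower. Of 141 called genes among those examined one by one, 14 lost their call with the overexpression libraries summed, 16 without control replicate 3 and 13 with the length correction, which was chosen after seeing the data, and none changed direction in these settings. Scarce genes rest on few counts, and at 0.06 CPM a library holds 1 count.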

Other observations

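Among genes of transport and signalling, 4 of 230 tested solute carriers were called higher and 2 lower, beside 2.61% and 1.89% of all genes. The adjusted p alone gave 70 rises and 37 falls. *SLC15A3*, a lysosomal transporter of small peptides, rose from 4.68 ± 0.327 to 12.3 ± 0.591 CPM (log2 fold change 1.39 ± 0.10, edgeR adjusted p = 1.5e-09), and *SLC37A2*, a sugar-phosphate exchanger, from 1.12 ± 0.0967 to 2.86 ± 0.0456 CPM (log2 fold change 1.35 ± 0.20, edgeR adjusted p = 2.02e-05). *SLC27A2*, a very long chain fatty acid transporter, fell from 4.76 ± 0.585 to 2.34 ± 0.20 CPM, close to 2-fold and under it without control replicate 1 (-0.98) or replicate 2 (-0.96) or overexpression replicate 1 (-0.95). Of 88 ion channel genes, 17 rose and 17 fell by the adjusted p alone. Called were 4 higher and 1 lower, beside 2.61% and 1.89% of all genes. The one lower was *TRPA1*, a cation channel opened by irritant compounds, with 56.98, 51.3 and 48.4 CPM in control replicates 1 to 3 against 14.4, 16.2 and 15.5 CPM in the overexpression libraries (log2 fold change -1.76 ± 0.08, edgeR adjusted p = 5.4e-13), and no control overlapped. The channels that rose were scarce, *KCNA6*, *CACNA1I*, *TRPM8* and *CLIC6*, all under 6 CPM, and *KCNA6* had no whole estimated count.

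Of 29 axon guidance ligands, 2 were called higher and 2 lower, beside 2.61% and 1.89% of all genes. The adjusted p alone gave 7 rises and 11 falls. *SEMA3F*, a secreted repellent that acts through neuropilins, had 29.9, 31.5 and 29.2 CPM in the control and 14.03, 12.5 and 13.3 CPM after overexpression (log2 fold change -1.18 ± 0.08, edgeR adjusted p = 3.46e-10), and *EFNA2*, an ephrin, fell from 3.25 ± 0.462 to 1.42 ± 0.426 CPM. *SLIT1* rose from 0.655 ± 0.332 to 1.98 ± 0.0977 CPM. The abundant *SEMA3C* had 294, 242 and 220.4 CPM in the control against 239, 247 and 250.4 CPM, and the groups overlapped (edgeR adjusted p = 0.712).

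*RPP14*, the largest rise with a mean of at least 5 CPM, had 0.631, 0 and 0 CPM in the control and 23.1, 13.99 and 26.03 CPM in the overexpression libraries, with 11 against 1094 counts, all control counts in replicate 1 and 3 estimated counts that were not whole. Without control replicate 1 the fitted log2 fold change was 11.49, against 6.58 with it, and such a value against 0 counts depends on the prior count and is no bound.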
